A study of Homo sapiens with 10 samples.

Results

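The genes described here charge transfer RNAs with amino acids, make amino acids, or belong to the stress branch that controls both. They comprise 20 genes of cytosolic aminoacyl-tRNA synthetases, 9 genes of amino acid synthesis and 4 genes of the ATF4 branch (ATF4, DDIT3, TRIB3 and CHAC1). The 33 genes were taken by name, with earlier results of these data known. All 33 are among the 50868 genes of the count table. In every comparison, 32 of them had at least 30 reads in the compared libraries together. The exception was PYCR1, a proline synthesis gene, with 2 reads in the vector library, 0 in the HEB library, 0 in the E2A library and 1 in the E2-2 library. No fold is given for it. The annotation and strand used in counting are unknown here, so whether these counts reflect the transcript or the counting was not tested.

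RNA was sequenced from Kasumi-1, an acute myeloid leukaemia cell line that carries the t(8;21) translocation and its AML1-ETO fusion. The cells were infected with a retrovirus made from the MIGR1 vector, either empty (called vector here) or carrying an HA-tagged E protein: HEB, E2A or E2-2. GFP-positive cells were sorted and their RNA was taken on day 4 after infection. The E proteins are basic helix-loop-helix factors that bind E-box DNA. All groups share the same cell line and its resident E protein genes, the factors were forced from a virus, and each group has 1 library, so every difference given is between libraries and carries no replicate error and no test.

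Each synthetase joins one amino acid to its transfer RNA and thereby supplies the ribosome. When amino acids are short or a tRNA stays uncharged, the kinase GCN2 phosphorylates the initiation factor eIF2, general translation falls, and translation of the transcription factor ATF4 rises. ATF4 then switches on synthetases, amino acid transporters and the enzymes of serine, asparagine and proline synthesis, often through C/EBP-ATF response elements near their start sites. Leukaemia cells are known to depend on some of these routes, among them asparagine supply, which is the target of asparaginase treatment.

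The response element core can be seen in the promoters of these genes. The sequences below were chosen because they hold that core (TGATGNAA, searched on both strands) in ASNS, in CHAC1 and in 4 of the synthetase genes. They are 30-base windows from RefSeq, build GRCh38.p14, on the strand of the gene, with the match in capitals. A match read from the opposite strand appears as its reverse complement.
ASNS (chr7:97872458-97872487, minus strand): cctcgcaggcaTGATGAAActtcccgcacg
IARS (chr9:92293692-92293721, minus strand): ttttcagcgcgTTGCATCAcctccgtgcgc
MARS (chr12:57488053-57488082, plus strand): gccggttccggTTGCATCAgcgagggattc
AARS (chr16:70289675-70289704, minus strand): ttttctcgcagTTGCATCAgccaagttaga
TARS (chr5:33440956-33440985, plus strand): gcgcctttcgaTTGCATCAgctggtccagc
CHAC1 (chr15:40953251-40953280, plus strand): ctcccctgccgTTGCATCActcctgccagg
The ASNS match begins 68 bases before a start site of that gene, and those of IARS and MARS begin 13 and 4 bases before theirs. Promoter windows running from 250 bases before to 50 bases after a start were given for 26 of the 33 genes. The core was present in 9 of these 26 genes (34.6%) and in 1217 of 27305 genes with a window of the same length (4.46%). The 9 were ASNS, CHAC1 and 7 of the 16 synthetase genes with a window: AARS, CARS, GARS, IARS, MARS, NARS and TARS. A match describes the letters of a window and does not show that a factor binds there.

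The general E-box CANNTG was as frequent in these promoters as in all promoters: it was found in 19 of the 26 genes (73.1%) and in 73.1% of all genes with a window. Of the forms reported for E proteins, CAGCTG was present in 5 of the 26 (19.2%) against 21.1% of all, and CACCTG, counted on both strands, in 9 of the 26 (34.6%) against 24.1% of all. Both forms are themselves matches of CANNTG, and in TARS and AARS an E-box shares bases with the response element core. The synthesis genes PHGDH, ASS1 and ASNS stood highest in the E2A library and hold CACCTG, so 1 match of that form, read from the opposite strand as CAGGTG, is shown for each with the same build and the match in capitals. CACCTG was also present in MTHFD2, IARS, MARS, CHAC1, FARSA and TRIB3, none of which stood highest in the E2A library. PSAT1 and the synthetase genes SARS and WARS, which did stand highest there, hold CANNTG matches but not CACCTG. A link between this form and the levels was not tested. ASS1 and ASNS hold further CANNTG matches that, like those of PSAT1, SARS and WARS, are not shown, and no window was given for SHMT2.
PHGDH (chr1:119711722-119711751, plus strand): ttatatgctcacCAGGTGtaggtaagagct
ASS1 (chr9:130444803-130444832, plus strand): cccgcccatctgCAGGTGgctgtgaacgct
ASNS (chr7:97872336-97872365, minus strand): cctgcttacgccCAGGTGagccgggtcctg
These matches begin 200 bases before the start of PHGDH, 146 before that of ASS1 and 188 before a start of ASNS. ASNS has windows for different start sites, and this start differs from the one that places its response element core: by coordinates on the minus strand, the ASNS E-box lies downstream of the core.

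Library depth ran from 14816708 to 17673090 summed counts, and levels are given in CPM, the counts of a gene per 1e+06 counts of its library, after the libraries were scaled to one another. Each factor gene was highest in the library labelled with it: TCF4, which encodes E2-2, had 12484 reads in the E2-2 library and at most 4 elsewhere, TCF3 (E2A) had 23186 against at most 4201, and TCF12 (HEB) had 13842 against at most 2971. All 10 myeloid markers had reads in every library, with summed levels from 14150 CPM in the E2-2 library to 22680 CPM in the HEB library. Of these markers, CD33 was 4.08-fold, 3.03-fold and 3.19-fold above vector in the E2-2, E2A and HEB libraries, and SPI1 was 2.01-fold above it in the E2-2 library (1.89 to 2.15). Of 8 epithelial, fibroblast or packaging cell markers, 7 had at most 22 reads in any library, EPCAM had up to 871, and the summed level lay between 43.2 and 57.7 CPM. The 7 markers of T, NK and B cells summed to between 1.86 and 2.84 CPM, and GNLY was at 0 in all 4 libraries.

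The genes called at 2-fold against vector were all synthesis enzymes: ASS1, PHGDH and PSPH. ASS1, PHGDH, ASNS, PSAT1 and SHMT2 all had their highest level in the E2A library. ASNS, PSAT1 and SHMT2 were not called at 2-fold against vector. PSPH, the last enzyme of serine synthesis, stood lower in the E2A and E2-2 libraries than in the vector library. The synthetase genes differed less: none of the 20 differed by 2-fold in any comparison, but most were lower in the E2-2 library and most were slightly higher in the HEB library than in the vector library. To be called here, a gene needed a fold of 2 or more, a 95% exact counting interval that leaves out 1, and 30 or more reads in the compared libraries. The range after each fold is that interval, which covers counting error only. In bulk RNA, fewer cells of a type and less RNA per cell cannot be told apart.

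Counted over the 32 measured genes, few passed that rule. Against vector, 1 was called higher and 1 lower in the E2-2 library, where 8.45% and 3.55% of 13884 genes were called higher and lower. In the E2A library 2 were called higher and 1 lower, beside 4.89% and 1.58% of 13901 genes. In the HEB library 1 was called higher and 0 lower, beside 2.55% and 1.23% of 13695 genes. At a threshold of 1.5-fold the members called higher and lower were 1 and 4 in the E2-2 library (background 13.5% and 9.43%), 3 and 1 in the E2A library (8.41% and 5.01%) and 1 and 0 in the HEB library (4.8% and 3.73%). The median log2 fold of the 32 genes was -0.29 in the E2-2 library, -0.15 in the E2A library and 0.12 in the HEB library, beside medians over all genes of -0.03, -0.01 and 0.01. These comparisons share the vector library.

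ASS1 (ENSG00000130707, chr9:130444929-130501274), argininosuccinate synthase, which joins citrulline and aspartate on the way to arginine, differed most. It had 29 reads in the vector library (1.86 CPM), 113 in the HEB library (6.83 CPM), 1112 in the E2A library (62.9 CPM) and 233 in the E2-2 library (15.4 CPM). The vector library was the lowest and the E2A library the highest, and none of the intervals of the 6 pairs of libraries included 1. Against vector, ASS1 was 33.9-fold higher in the E2A library (23.4 to 50.8), 8.26-fold higher in the E2-2 library (5.60 to 12.6) and 3.67-fold higher in the HEB library (2.42 to 5.73). Among the genes called higher, it ranked 36 of 680 by fold in the E2A library, 298 of 1173 in the E2-2 library and 136 of 349 in the HEB library. Of the genes named as copies of ASS1, ASS1P12 held the most reads, between 14 and 21 in every library.

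Serine is made from a glycolytic intermediate in a chain of PHGDH, PSAT1 and PSPH. PHGDH (chr1:119659798-119744215), phosphoglycerate dehydrogenase, the first enzyme of the chain, had 2234 reads in the vector library (143 CPM), 2526 in the HEB library (153 CPM), 5504 in the E2A library (312 CPM) and 2368 in the E2-2 library (156 CPM). It was thus high in the E2A library alone, 2.17-fold above vector (2.07 to 2.29), while the E2-2 and HEB libraries were 1.09-fold and 1.07-fold above vector. PSAT1, the transaminase of the second step, was named here for its place in the chain although no comparison called it at 2-fold. It had 1413 reads in the vector library (90.6 CPM), 1718 in the HEB library (104 CPM), 2324 in the E2A library (131 CPM, 1.45-fold above vector, 1.36 to 1.55) and 1317 in the E2-2 library (86.8 CPM).

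PSPH (chr7:56011051-56051604), the phosphatase that releases serine, ran the other way. It had 523 reads in the vector library (33.5 CPM), 478 in the HEB library (28.9 CPM), 285 in the E2A library (16.1 CPM) and 220 in the E2-2 library (14.5 CPM). The E2-2 and E2A libraries were low, at 2.31-fold (1.97 to 2.72) and 2.08-fold (1.80 to 2.41) below vector, and the HEB library was 1.16-fold below it. The 3 genes together summed to 267 CPM in the vector library, 285 in the HEB library, 459 in the E2A library and 258 in the E2-2 library, so the sum in the E2A library was 1.72 times that of vector while its last enzyme was lower. PSPHP1, a gene named as a copy of PSPH, held 20 to 33 reads per library.

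ASNS (chr7:97852118-97872542), asparagine synthetase, was highest in the E2A library and lowest in the E2-2 library. It had 2043 reads in the vector library (131 CPM), 1912 in the HEB library (116 CPM), 3806 in the E2A library (215 CPM) and 1547 in the E2-2 library (102 CPM). The E2A library was 1.65-fold above vector (1.56 to 1.74), which passed the 1.5-fold rule and not the 2-fold rule, while the E2-2 library was 1.28-fold and the HEB library 1.13-fold below vector.

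SHMT2 and MTHFD2 carry serine carbon into the mitochondrial folate pool. SHMT2, the serine hydroxymethyltransferase of mitochondria, had 1961 reads in the vector library (126 CPM), 2135 in the HEB library (129 CPM), 2751 in the E2A library (156 CPM) and 1536 in the E2-2 library (101 CPM). The E2A library was 1.24-fold above vector (1.17 to 1.31) and the E2-2 library 1.24-fold below it (1.16 to 1.33). MTHFD2, the dehydrogenase that follows, did not share the high E2A value: it was highest in the HEB library at 1.19-fold above vector (1.12 to 1.26), and 1.12-fold below vector in the E2A library (1.05 to 1.19).

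ALDH18A1, which makes the precursor of proline and ornithine from glutamate, was lowest in the E2-2 library. It had 3295 reads in the vector library (211 CPM), 3369 in the HEB library (204 CPM), 3101 in the E2A library (175 CPM) and 2071 in the E2-2 library (137 CPM). The E2-2 library was 1.55-fold below vector (1.46 to 1.64), past the 1.5-fold rule only.

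**Figure D1:**
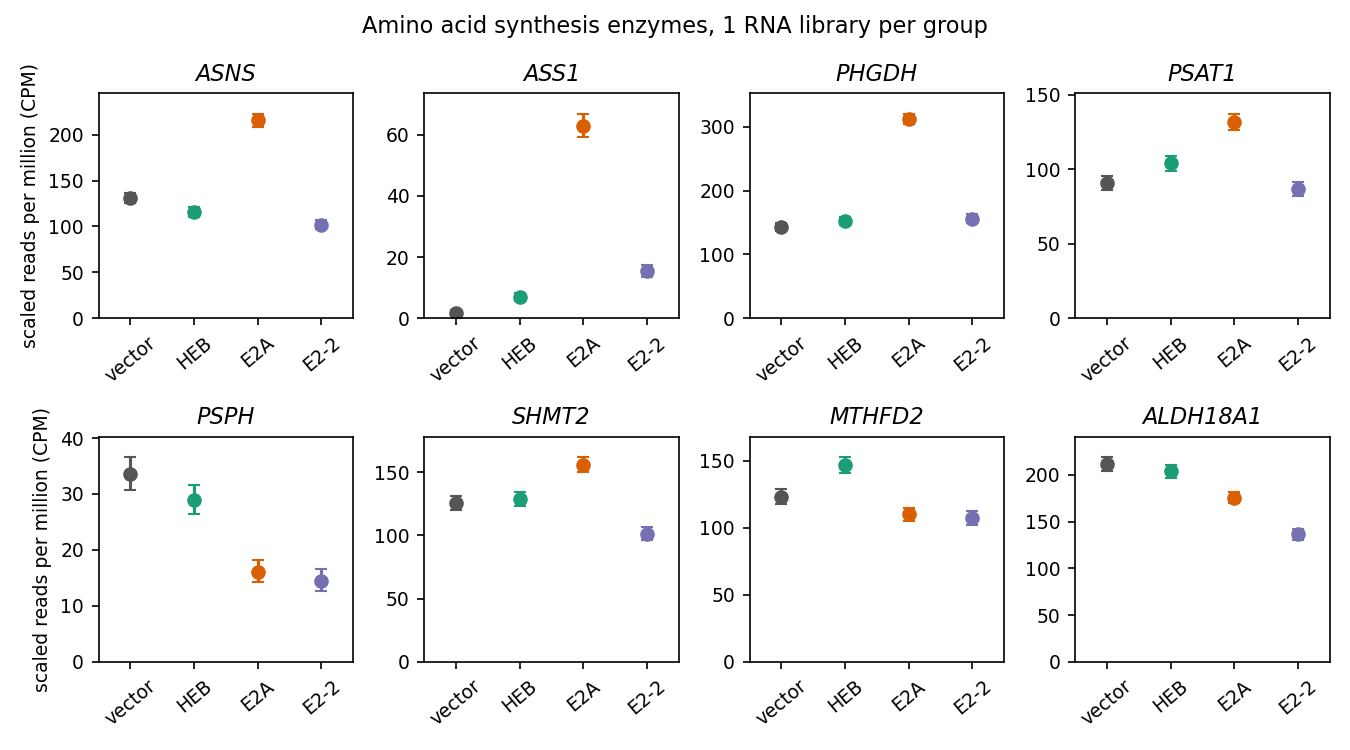
Scaled level (CPM) of the 8 measured amino acid synthesis genes in the vector, HEB, E2A and E2-2 libraries, 1 library per group; bars are 95% exact counting intervals and each vertical axis starts at 0. ASS1, PHGDH, ASNS, PSAT1 and SHMT2 are highest in the E2A library, and PSPH is lower in the E2A and E2-2 libraries than in the other libraries.

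The cytosolic synthetases were mostly lower in the E2-2 library than in the vector library, each by less than 2-fold. Of 20 genes, 19 lay below vector there, with log2 folds from -0.65 (LARS) to 0.06 (SARS) and a median of -0.29. The interval lay wholly below 1 for 17 of the 20 (85%), a share to be read beside the 42.3% of 6095 genes with at least 1000 reads in the compared libraries whose interval also lay below 1, and the 31.6% whose interval lay above it. With libraries scaled by summed counts alone the number was 14 of 20. None was called at 2-fold, and LARS alone at 1.5-fold. Whether an interval leaves out 1 depends also on read depth. Here and below, the genes with at least 1000 reads were not matched to the synthetases by depth.

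LARS, leucyl-tRNA synthetase, which also takes part in leucine sensing for mTORC1, had 4872 reads in the vector library (312 CPM), 5295 in the HEB library (320 CPM), 4834 in the E2A library (274 CPM) and 3025 in the E2-2 library (199 CPM). The E2-2 library stood apart from the others, 1.57-fold below vector (1.496 to 1.64). WARS, tryptophanyl-tRNA synthetase, known to be raised by interferon, had 1737 reads in the vector library (111 CPM), 2098 in the HEB library (127 CPM), 2424 in the E2A library (137 CPM) and 1245 in the E2-2 library (82.1 CPM). WARS was highest in the E2A library, 1.23-fold above vector (1.16 to 1.31), and lowest in the E2-2 library, 1.36-fold below it (1.26 to 1.46).

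In the E2A library the synthetases were lower than in vector by a smaller amount. The median log2 fold was -0.14, 17 of the 20 lay below 0, and the range ran from -0.38 (MARS) to 0.30 (WARS). The interval lay below 1 for 12 and above 1 for 3, namely FARSA, SARS and WARS, beside 34% and 27.8% of 6310 genes with at least 1000 reads. SARS, which charges the serine tRNA, was 1.23-fold above vector (1.13 to 1.34), and a link to the serine synthesis genes was not tested.

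In the HEB library the synthetases were higher than in vector. The median log2 fold was 0.12, 18 of the 20 lay above 0, and the interval lay above 1 for 13 and below 1 for QARS alone, at 1.13-fold below vector (1.08 to 1.17). Among 6211 genes with at least 1000 reads, 29.1% had an interval above 1 and 22.4% below it. The highest was FARSA, the catalytic subunit of phenylalanyl-tRNA synthetase, at 1.32-fold (1.24 to 1.42). Its partner subunit FARSB was 1.09-fold above vector (1.003 to 1.19). With summed counts alone as the scaling, 11 of 20 intervals lay above 1.

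**Figure D2:**
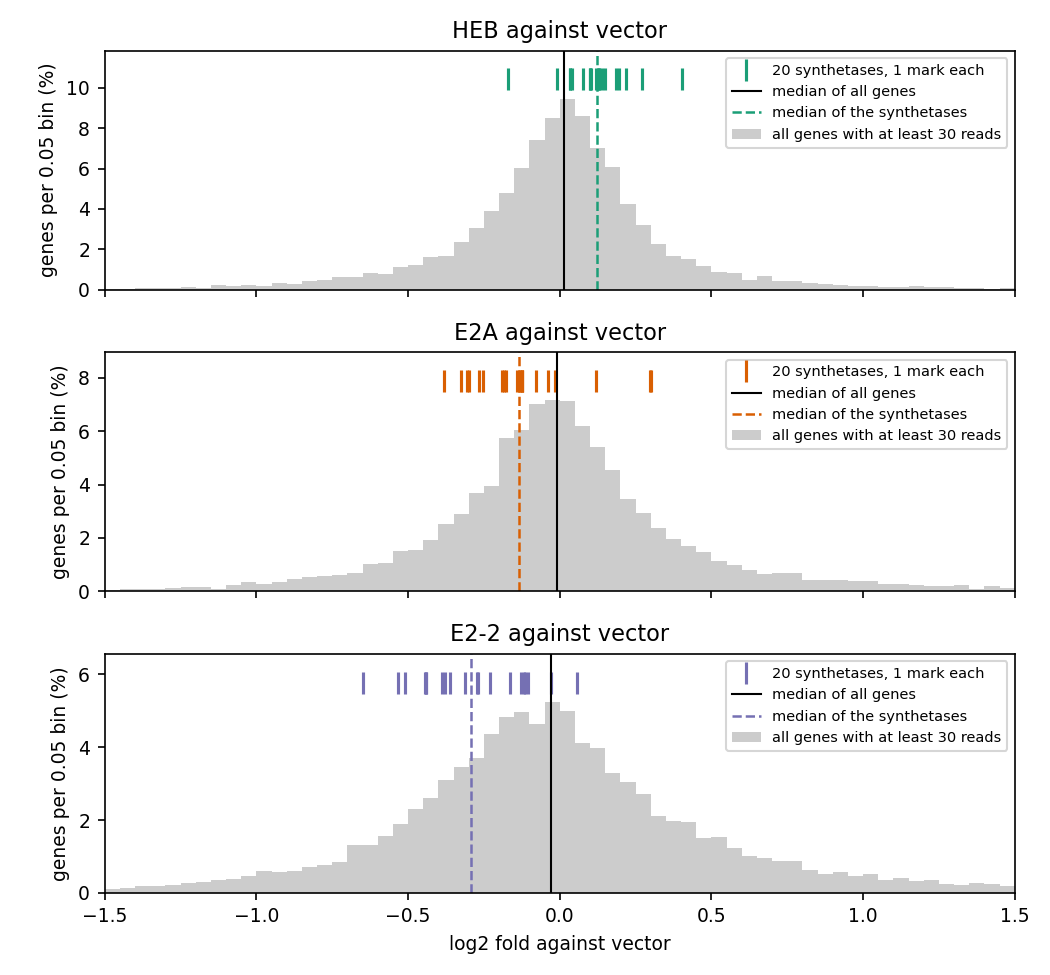
Log2 fold against vector in the HEB, E2A and E2-2 libraries: gray bars give the percentage of all genes with at least 30 reads in bins of 0.05, and each coloured mark is 1 of the 20 cytosolic synthetase genes. The synthetase medians (dashed) are 0.12, -0.14 and -0.29, beside medians of all genes (black) of 0.01, -0.01 and -0.03.

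Taken as a sum, the reads of the 20 synthetase genes came to 3681 CPM in the vector library, 3943 in the HEB library, 3294 in the E2A library and 2916 in the E2-2 library. The last of these is 0.792 times the vector sum. The HEB library was the highest of the 4 for 16 of the 20 genes, and the E2-2 library was the lowest for 13, the E2A library for 6 and the vector library for 1. The summed level of the 10 myeloid markers took the same order over the libraries: 22680 CPM in HEB, 18800 in vector, 16360 in E2A and 14150 in E2-2. MPO carried most of that sum, with 18010 CPM in HEB, 14860 in vector, 13170 in E2A and 11250 in E2-2. Single markers differed in order: CD33, SPI1 and PTPRC were highest in the E2-2 library, and CD34 was highest in the vector library. Their part in the result was not tested.

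Some of the synthetases sit together in the multisynthetase complex, which holds EPRS (the joint glutamyl and prolyl enzyme), IARS, LARS, QARS, MARS, KARS, RARS and DARS. These 8 had a summed level in the E2-2 library of 0.746 times that in vector, with log2 folds from -0.65 to -0.27. The other 12 (AARS, CARS, FARSA, FARSB, GARS, HARS, NARS, SARS, TARS, VARS, WARS and YARS) had 0.851 times the vector level, with log2 folds from -0.53 to 0.06. The ranges overlap, and the split was made after the values were seen. Grouped instead by the response element core, the 7 synthetases that hold it and the 9 with a window that do not had medians in the E2A library of -0.25 and -0.04, in the E2-2 library of -0.16 and -0.27, and in the HEB library of 0.13 and 0.13.

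Among the scaffold proteins of that complex and the tRNA export factor, EEF1E1, a scaffold protein also known as AIMP3, was lower in the E2-2 library. It had 151 reads in the vector library, 153 in the HEB library, 134 in the E2A library and 73 in the E2-2 library, 2.01-fold below vector (1.51 to 2.70). With DESeq2 size factors, summed counts or FPKM its log2 fold was -0.99, -0.96 and -0.96, short of the 2-fold rule. It was the only one of these 4 genes called in any comparison with vector. Of the 17 mitochondrial synthetases, none was called in any of these comparisons. Their median log2 fold was -0.26 in the E2-2 library, with 15 below 0, -0.18 in the E2A library and 0.04 in the HEB library. Over all genes these medians were -0.03, -0.01 and 0.01, and 7373 of 13884 genes lay below 0 in the E2-2 library. The shares of all genes called higher than vector were 8.45%, 4.89% and 2.55% in the E2-2, E2A and HEB libraries. Those called lower were 3.55%, 1.58% and 1.23%.

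None of the 4 ATF4 branch genes was called at 2-fold against vector. ATF4 itself, regulated mainly in translation, had 5175 reads in the vector library (332 CPM), 5821 in the HEB library (352 CPM), 4644 in the E2A library (263 CPM) and 4637 in the E2-2 library (306 CPM). Its transcript was lowest in the E2A library, 1.26-fold below vector (1.21 to 1.31), in the library in which ASNS and PHGDH were highest. RNA levels do not report ATF4 protein, which was not measured in these libraries.

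TRIB3 (chr20:362835-397559), a pseudokinase that restrains ATF4, was highest in the HEB library and lowest in the E2-2 library. It had 952 reads in the vector library (61.0 CPM), 1352 in the HEB library (81.7 CPM), 847 in the E2A library (47.9 CPM) and 503 in the E2-2 library (33.2 CPM). Against vector, the E2-2 library was 1.84-fold lower (1.65 to 2.05), the E2A library 1.27-fold lower (1.16 to 1.40) and the HEB library 1.34-fold higher (1.23 to 1.46).

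DDIT3, which encodes the stress factor CHOP, had 59 reads in the vector library (3.78 CPM), 72 in the HEB library (4.35 CPM), 49 in the E2A library (2.77 CPM) and 58 in the E2-2 library (3.82 CPM), and each interval against vector included 1. CHAC1, a glutathione-degrading enzyme, had 51 reads in the vector library (3.27 CPM), 64 in the HEB library (3.87 CPM), 52 in the E2A library (2.94 CPM) and 33 in the E2-2 library (2.18 CPM), and again each interval against vector included 1. At these depths no difference from vector was detectable for either gene: the intervals of DDIT3 reached from 0.491 to 1.65 and those of CHAC1 from 0.416 to 1.74.

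**Figure D3:**
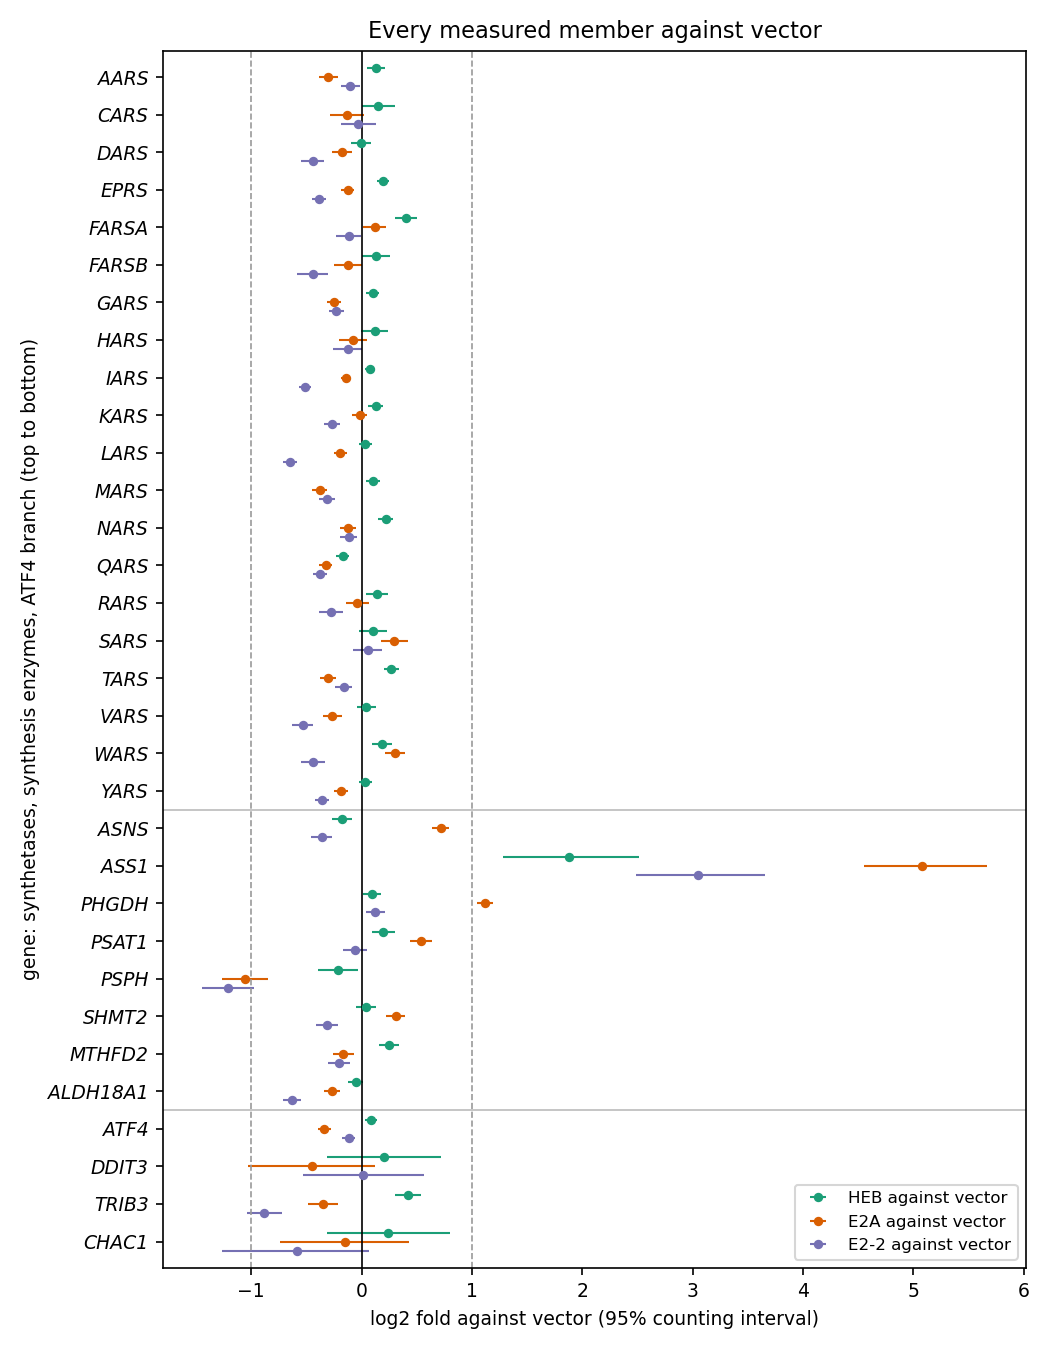
Log2 fold against vector for each of the 32 measured genes in the HEB, E2A and E2-2 libraries, with 95% exact counting intervals; dashed lines mark 2-fold. ASS1 stands far to the right in all 3, PHGDH only in the E2A library, PSPH to the left in the E2A and E2-2 libraries, and the synthetases lie between the dashed lines.

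The E protein libraries were also set against each other. Between E2-2 and E2A, 0 of the 32 genes were called higher and 2 lower in the E2-2 library, beside 3.63% and 1.61% of 14066 genes. These were ASS1, 4.10-fold lower (3.55 to 4.74), and ASNS, 2.11-fold lower (1.99 to 2.24). PHGDH, 1.995-fold lower (1.90 to 2.09), lay just outside the rule. At 1.5-fold, 6 genes were lower and 0 higher, beside a background of 4.15% lower and 6.91% higher. The other 4 were PHGDH, WARS at 1.67-fold (1.56 to 1.79), SHMT2 at 1.54-fold (1.44 to 1.64) and PSAT1 at 1.51-fold (1.42 to 1.62). The median log2 fold of the synthetases was -0.24, and the interval lay below 1 for 12 of 20 and above 1 for 2. Among all genes with at least 1000 reads, 34.1% had an interval below 1 and 27.4% above it.

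Between E2-2 and HEB, 1 gene was called higher and 1 lower in the E2-2 library, beside 6.09% and 1.57% of 13891 genes. ASS1 was 2.25-fold higher (1.79 to 2.84) and TRIB3 was 2.46-fold lower (2.22 to 2.73). PSPH was 1.99-fold lower, just short of the rule. At 1.5-fold, 1 gene was higher and 6 lower, beside 10.7% and 6.03%: PSPH, CHAC1 at 1.78-fold (1.15 to 2.79), TRIB3, LARS at 1.60-fold (1.53 to 1.68), WARS at 1.54-fold (1.44 to 1.66) and IARS at 1.504-fold (1.45 to 1.56). With summed counts or FPKM, IARS had a log2 fold of -0.53 and did not pass. All 20 synthetases lay below 0, with a median log2 fold of -0.41, and the interval lay below 1 for 19 of them, beside 42.3% of all genes with at least 1000 reads. Scaled by summed counts alone, 19 lay below 0 and 18 intervals lay below 1.

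Between E2A and HEB, 2 genes were called higher in the E2A library and 0 lower, beside 2.38% and 0.696% of 13944 genes. ASS1 was 9.22-fold higher (7.59 to 11.3) and PHGDH 2.04-fold higher (1.95 to 2.14). At 1.5-fold, 3 were higher and 3 lower, beside 5.21% and 2.51%. ASNS joined the higher genes at 1.86-fold. The lower genes were PSPH at 1.79-fold, TRIB3 at 1.70-fold (1.56 to 1.86) and DDIT3 at 1.57-fold (1.08 to 2.30), the last on 49 and 72 reads. The synthetases had a median log2 fold of -0.24, with the interval below 1 for 18 of 20 and above 1 for 2. Among genes with at least 1000 reads, 33.4% had an interval below 1 and 22.5% above it.

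**Figure D4:**
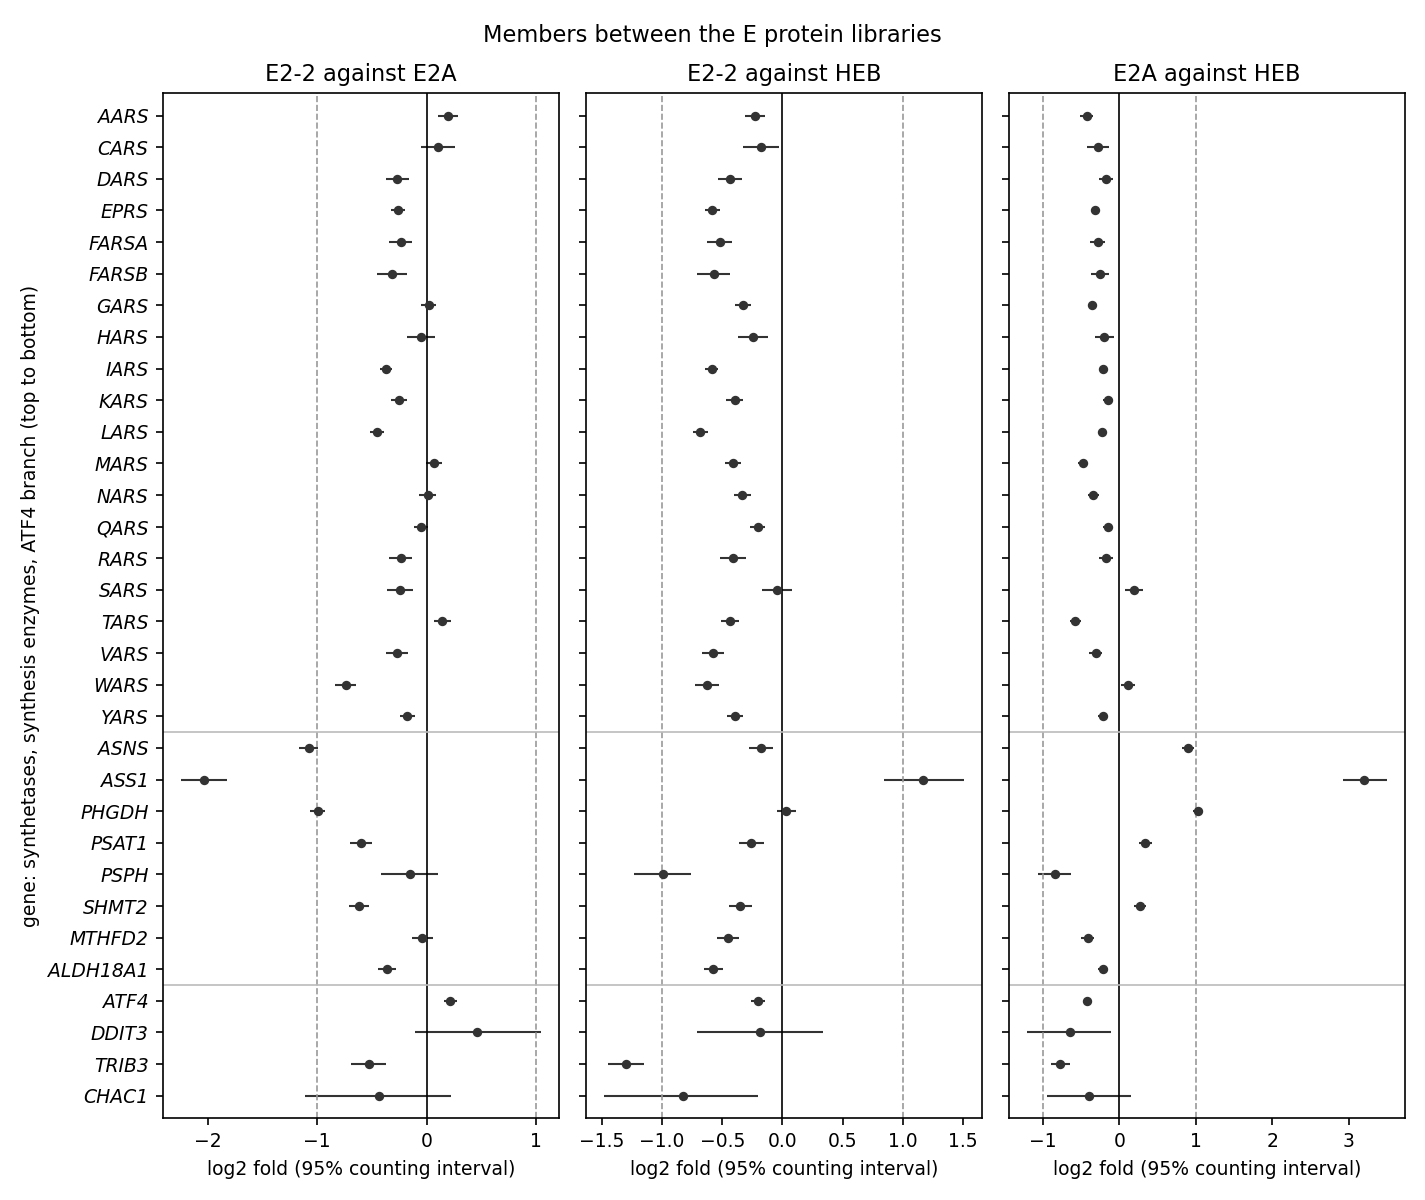
Log2 fold between the E protein libraries for the 32 measured genes, with 95% exact counting intervals; dashed lines mark 2-fold, and the horizontal scale differs between panels. ASS1 and ASNS are more than 2-fold lower in the E2-2 than in the E2A library, TRIB3 more than 2-fold lower in the E2-2 than in the HEB library, and ASS1 and PHGDH more than 2-fold higher in the E2A than in the HEB library.

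Other genes of the same pathways were read from lists chosen by function. The counts of these lists are to be read beside the shares of all genes called higher and lower than vector. Those shares were 8.45% and 3.55% in the E2-2 library, 4.89% and 1.58% in the E2A library and 2.55% and 1.23% in the HEB library. Of 21 measured enzymes of amino acid and one-carbon metabolism, 1 was called higher and 1 lower in the E2-2 library, 1 higher in the E2A library and none in the HEB library. ARG2, the mitochondrial arginase, which breaks arginine down, was 2.55-fold below vector in the E2-2 library (2.00 to 3.27), with 241 reads in the vector library and 92 there. ALDH1L2, a mitochondrial folate enzyme, had 620 reads in the vector library, 757 in the HEB library, 1967 in the E2A library and 560 in the E2-2 library. It was high in the E2A library alone, 2.80-fold above vector (2.56 to 3.07).

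Of 13 amino acid transporters, 2 were called higher and 1 lower than vector in the E2-2 library, and 0 in the E2A and HEB libraries. Over all genes, 8.45% were called higher and 3.55% lower in the E2-2 library. SLC1A4, a carrier of alanine, serine and cysteine, was 2.099-fold above vector (1.92 to 2.30), on 688 reads in the vector library and 1404 in the E2-2 library. SLC7A6, a carrier of cationic and neutral amino acids, was 2.01-fold above (1.78 to 2.27). SLC6A9, a glycine carrier, was 2.17-fold below (1.34 to 3.59), on 58 and 26 reads. The medians of the 13 were 0.19, 0.17 and 0.26 in the E2-2, E2A and HEB libraries.

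Of 15 other ATF4 target genes with enough reads, 2 were called higher and 1 lower in the E2-2 library, 1 higher and 1 lower in the E2A library, and 1 higher in the HEB library. The shares of all genes called higher were 8.45%, 4.89% and 2.55% in the E2-2, E2A and HEB libraries, and those called lower 3.55%, 1.58% and 1.23%. JDP2, a basic leucine zipper repressor, had 100 reads in the vector library (6.41 CPM), 297 in the HEB library (17.9 CPM), 227 in the E2A library (12.8 CPM) and 359 in the E2-2 library (23.7 CPM). All 3 E protein libraries lay above vector, by 3.69-fold in E2-2 (2.95 to 4.66), 2.80-fold in HEB (2.23 to 3.55) and 2.00-fold in E2A (1.58 to 2.56). VLDLR, a lipoprotein receptor, was 6.53-fold above vector in the E2-2 library (4.85 to 8.96), on 51 and 324 reads, and STC2, a secreted stress protein, was 2.54-fold below it (2.03 to 3.21). CTH, which makes cysteine from cystathionine, was 2.18-fold below vector in the E2A library (1.35 to 3.61), on 52 and 27 reads.

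None of 13 genes of the eIF2 kinases, eIF2 and eIF2B was called in any comparison with vector. Of 14 ER chaperone and unfolded protein response genes, ERN1, the IRE1 sensor kinase, was called in the E2-2 library at 2.23-fold above vector (1.85 to 2.68), and none was called in the E2A or HEB library. In the HEB library the interval lay above 1 for 12 of these 14 and below 1 for 0, with a median log2 fold of 0.26. It lay above 1 for 3 and below 1 for 5 in the E2-2 library (median 0.01), and for 6 and 4 in the E2A library (median -0.04). Among genes with at least 1000 reads, not matched to these by depth, the shares above and below 1 were 29.1% and 22.4% in HEB, 31.6% and 42.3% in E2-2, and 27.8% and 34% in E2A.

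The strand used in counting is not given in the sources used here, so overlapping genes are uncertain. Of the 33 genes, 8 overlap a gene that held at least 30 reads. DDIT3 shares 982 bases with the end of MARS, which held 3020 to 4390 reads, so the counts of 49 to 72 reads given for DDIT3 are uncertain. For 14 genes the table holds 41 genes named as copies, of which 39 held at most 4 reads in any library.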

How the data were processed

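Gene expression was measured in 4 RNA libraries, 1 per group, grouped by the labels; ChIP libraries of the study were not analysed here. Per the labels' protocols, RNA came from TRIzol extraction and TruSeq libraries. The authors deposited 1 table with whole-number read counts per gene and library and FPKM values. Tools listed per the submitters' processing notes, with no roles, are MACS2 2.1.1.20160309, Bowtie2 2.2.9, TopHat2 2.0.9 and HTSeq 0.9.1; hg19 and hg38 are the builds. Not given in the sources used here are annotation, read length and any use of strand in counting.

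Counts were scaled with TMM (edgeR 4.0.16, R 4.3.3) over the 4 libraries. Summed counts ran from 14816708 to 17673090. Folds of scaled counts carry 95% exact conditional binomial (Clopper-Pearson) intervals for counting error only, since each group has 1 library. PCR copies of 1 molecule cannot be told apart, and the intervals take no account of them. Calls needed 2-fold, an interval excluding 1 and at least 30 reads in the compared libraries. A count of 0 would be set to 3 reads. The computation was tested on simulated data. Python 3.11.15, numpy 2.4.6, pandas 2.3.3, scipy 1.17.1 and matplotlib 3.10.9 were used.

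The members and the lists were chosen with earlier results of these data known. Values in all libraries are printed for members called in any of 6 comparisons, for ATF4 and for the next 6 by range, and up to 4 called genes per other list and comparison are named, except 1 that is not reported here. ALDH1L2, JDP2 and EEF1E1 have their reads in every library printed, a choice made after their values were seen. The minimum of 1000 reads for the interval shares was also chosen after seeing the data. The table lists NIBAN1 as FAM129A and PYCR3 as PYCRL, which were used. Gene positions are those of the deposited table, and all 33 members overlapped the RefSeq gene of GRCh38.p14 on the same chromosome. RefSeq promoters of that build were matched through Ensembl identifiers and symbols, for 26 members. DESeq2 1.42.0 size factors, summed counts, FPKM, TMM without the listed genes, read minimums of 100 and none, and a threshold of 1.5-fold were tried as 7 alternatives.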

Additional observations from a re-analysis of the deposited data

How the results depend on the processing

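No paired analysis was possible because each group has 1 library, and for the same reason no library could be left out. A threshold of 1.5-fold moved the number of genes called lower among the 32 from 1 to 4 for E2-2 against vector, from 2 to 6 for E2-2 against E2A, from 1 to 6 for E2-2 against HEB and from 0 to 3 for E2A against HEB. The other 8 counts at that threshold stayed within 1.5 times the count at 2-fold. Under each of the other 6 alternatives, all 18 counts and medians of the members kept their direction, and the counts stayed within 1.5 times. No called fold of a named gene changed sign, and EEF1E1 in the E2-2 library lost its 2-fold call under DESeq2 size factors, summed counts and FPKM. SLC6A9 in the E2-2 library and CTH in the E2A library fell below the minimum of 100 reads and have no call there. DDIT3, CHAC1 and PYCR1 are limited by few reads.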
